A study of Mus musculus with 10 samples.

Results

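The 42 genes described here encode the extracellular layer of WNT signalling in mouse thyroid tumours: 19 WNT ligands, 4 R-spondins, 10 Frizzled receptors, 5 secreted WNT-binding proteins (4 secreted Frizzled-related proteins and Wif1) and 4 Dickkopf antagonists. They are all genes of these families that a probe set with a single gene symbol of the platform annotation represented. Within the families the choice went by symbol alone, but the families were chosen with earlier results of these data known. The members are 42 of the 19938 genes tested. Of several probe sets for 1 gene, which among the 42 only Wnt4 had, the one with the highest mean was used.

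RNA from 5 papillary thyroid carcinomas (PTC) and 5 anaplastic thyroid carcinomas (ATC), 1 array per tumour, was hybridised to Affymetrix whole-transcript arrays. The PTC tumours carried TPOCreER, a tamoxifen-inducible Cre recombinase under the thyroid peroxidase promoter, and BrafV600E, the activated kinase that Cre switches on in thyroid follicular cells. The ATC tumours carried the same 2 alleles and were p53 -/-, so tumour type and p53 genotype changed together and cannot be told apart. All mice were of a mixed C57BL/6 and 129SvJae background. Ages, the cells in which p53 was lost and whether each tumour came from its own animal are not stated in the labels used here, so p-values measure the spread between these tumours. All values are log2 intensities of a probe set, differences are ATC minus PTC, and each mean stands with its SD (n = 5 tumours in either group). A gene "rose" or "fell" where its limma p was under 0.05 after Benjamini-Hochberg adjustment, which took in all 19938 genes.

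WNT ligands are lipid-modified secreted proteins that bind a Frizzled receptor together with the co-receptor LRP5 or LRP6. In the canonical branch this stops the destruction of beta-catenin, which then enters the nucleus and activates transcription with TCF and LEF factors, whereas other branches act on cell polarity and calcium. Secreted Frizzled-related proteins (SFRPs) and WIF1 bind WNT ligands outside the cell, Dickkopf proteins bind LRP5 and LRP6, and R-spondins act through LGR receptors to protect Frizzled from the ubiquitin ligases RNF43 and ZNRF3. In human thyroid cancer, mutation of the beta-catenin gene is known mainly from poorly differentiated and anaplastic tumours.

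Differences of more than 1 log2 unit were found for 4 of the 42 genes, the receptor gene Fzd6 and the antagonist genes Sfrp1, Sfrp4 and Dkk2, while the ligands differed by −0.26 to 0.74. Over all 19938 genes, 906 differed by at least 1 log2 unit. Of the 42 genes, 4 rose, 6 fell and 32 did not pass. The 10 calls are 23.8% of the family, beside 21.2% of all genes tested. The 4 rises are 9.52% beside 11.5%, and the 6 falls are 14.3% beside 9.72%. The share of calls in the family was therefore close to that of the whole array. The median difference was −0.06 in the family and −0.02 over all genes. The ATC and PTC values did not overlap for 6 members: in Dkk2 and Wnt7b the ATC tumours were above, and in Fzd1, Fzd6, Fzd9 and Sfrp1 below. These are 2 and 4 of the 42, where the background shares were 9.13% and 7.74% of all genes. For 28 of the 42 members the difference was smaller than 0.25 in either direction, as it was for 13610 of all 19938 genes. Without PTC replicate 3, PTC replicate 4 or, of the ATC tumours, replicate 5, the number of rises was 2.

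**Figure D1:**
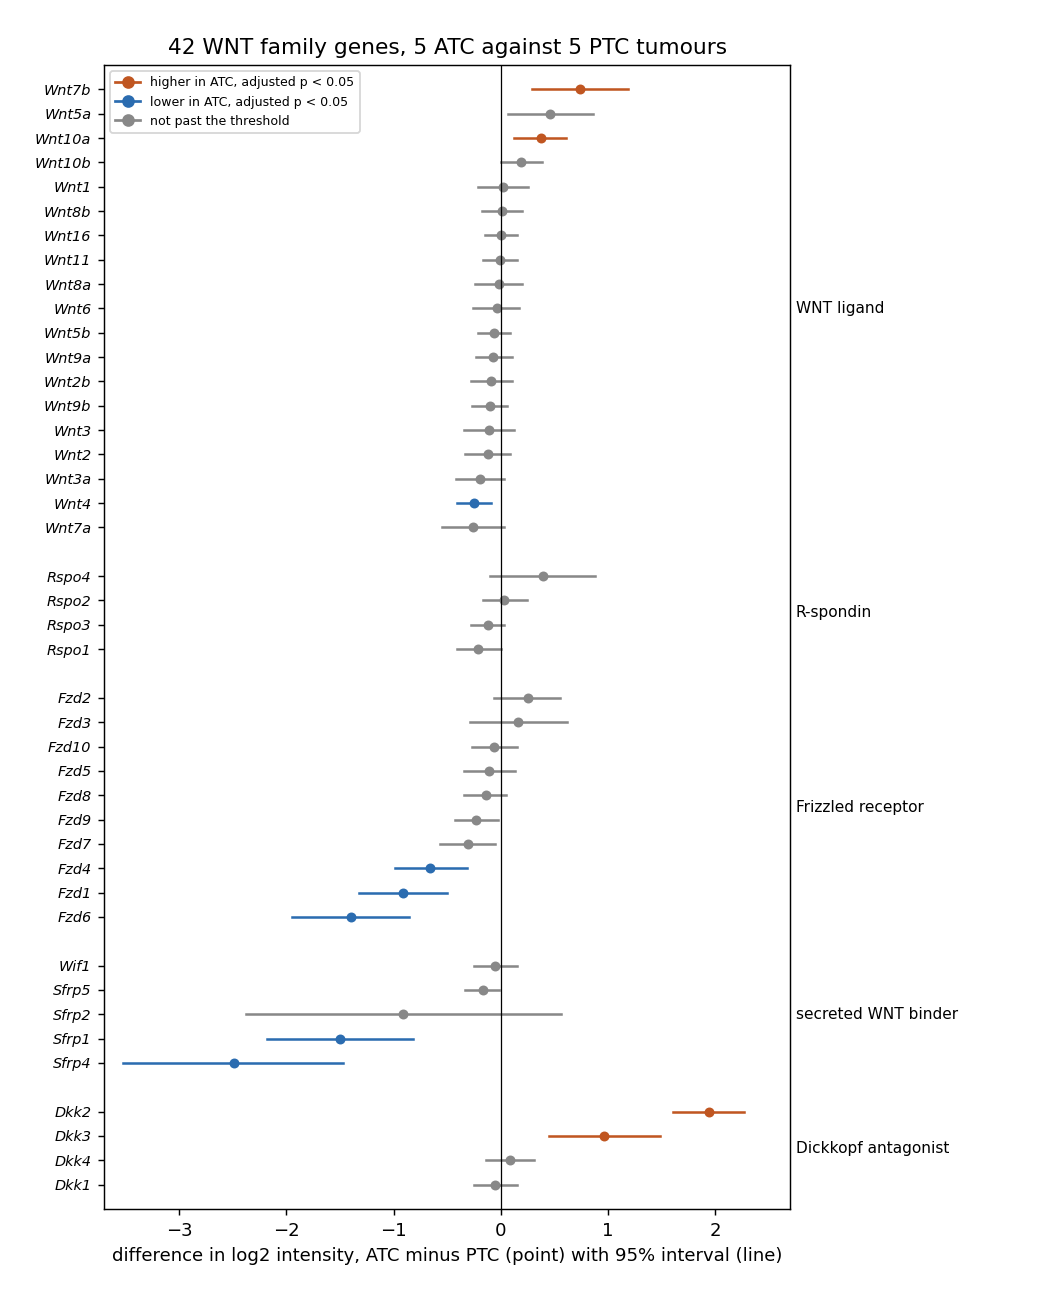
Differences in log2 intensity, ATC minus PTC, of the 42 genes on the x axis, grouped by class, with the 95% interval of the limma fit as a line. The ligands lie between −0.26 and 0.74, Fzd6, Sfrp1 and Sfrp4 lie below −1, and Dkk2 lies at 1.94.

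The array medians over all probe sets were 7.25 to 7.34, and across genes, PTC arrays correlated with each other at 0.98 to 0.993, ATC arrays with each other at 0.97 to 0.981, and arrays of different types at 0.927 to 0.974. ATC replicate 5 had the lowest array weight (0.375). The level of the deleted p53 gene is not analysed here, so the genotype labels were not checked from the arrays. Of 7 measured follicular cell markers, Iyd and Tshr fell and 5 did not pass. The mean of the 7 was 8.53 to 9.76 in the PTC tumours and 6.93 to 8.91 in the ATC tumours. ATC replicate 2 was the highest ATC tumour for Tg (12.0), Tshr (7.81), Pax8 (8.95) and Iyd (9.81), but not for Slc5a5, Nkx2-1 and Foxe1. In whole tumours, fewer cells of a type and less RNA per cell cannot be told apart.

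Among the 19 WNT ligands, Wnt7b and Wnt10a rose, Wnt4 fell and 16 did not pass. The 3 calls are 15.8% of the class, beside 21.2% of all genes. Wnt7b, a ligand of epithelia that acts mainly through beta-catenin, was at 7.63, 7.58, 7.38, 7.48 and 7.35 in PTC replicates 1 to 5 and at 8.20, 7.93, 9.0, 7.63 and 8.35 in ATC replicates 1 to 5. ATC replicate 4 was only just above the highest PTC tumour, and ATC replicate 3 was the highest. The difference was 0.74 (SE 0.21, 95% interval 0.29 to 1.19), a 1.67-fold rise (adjusted p = 0.0252).

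Wnt10a, another canonical ligand, known from skin, hair and teeth, was at 7.25, 7.31, 7.49, 7.44 and 7.49 in PTC and at 7.65, 7.46, 7.85, 7.76 and 8.10 in ATC. ATC replicate 2 lay within the PTC range, and the other ATC tumours lay above it. The difference was 0.37 (SE 0.11, adjusted p = 0.0363). Wnt4, a ligand of kidney and gonad development, was at 8.31, 8.24, 8.38, 8.12 and 8.24 in PTC and at 7.94, 8.08, 7.99, 8.14 and 7.90 in ATC. The groups overlapped by 1 tumour, ATC replicate 4, and the difference was −0.25 (SE 0.07, adjusted p = 0.0342). The second Wnt4 probe set gave 6.80 ± 0.21 in PTC and 6.63 ± 0.14 in ATC, a difference of −0.17.

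These 3 ligand calls were close to the threshold. The Wnt7b call was lost on leaving out PTC replicate 3, 4 or 5 or, of the ATC tumours, replicate 5 (adjusted p from 0.0524 to 0.0587 and differences from 0.71 to 0.74). The Wnt10a call was lost on leaving out PTC replicate 1, 2, 3 or 4 or, of the ATC tumours, replicate 3, 4 or 5 (adjusted p from 0.0546 to 0.0866 and differences from 0.28 to 0.39), and the Wnt4 call on leaving out PTC replicate 1, 2, 3 or 5 or, of the ATC tumours, replicate 1, 3 or 5 (adjusted p from 0.0551 to 0.0888 and differences from −0.25 to −0.22). Wnt5a, the best known ligand of the polarity and calcium branches, did not pass. Its values were 7.36, 6.69, 6.83, 6.96 and 6.93 in PTC and 7.76, 6.98, 7.52, 7.79 and 7.05 in ATC, with ATC replicates 2 and 5 inside the PTC range. The difference was 0.46 (SE 0.18, 95% interval 0.07 to 0.86, adjusted p = 0.0958), and it passed without ATC replicate 2 (0.57, adjusted p = 0.0387).

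The other 15 ligands did not pass, with 95% intervals that lay between −0.55 and 0.38. Wnt1, Wnt2, Wnt3, Wnt7a, Wnt8a and Wnt8b were dim, with means over all arrays of 5.64 to 6.42. The 25th percentile of gene means was 6.53. At such levels a small difference may understate that of the RNA. The canonical ligands Wnt1, Wnt3 and Wnt3a differed by 0.02, −0.11 and −0.19, and Wnt10b differed by 0.19. Wnt2, Wnt2b, Wnt6, Wnt7a and Wnt16 differed by −0.12, −0.09, −0.04, −0.26 and 0.00. Wnt5b and Wnt11, ligands linked to the polarity branch, differed by −0.06 and −0.01. The remaining Wnt8a, Wnt8b, Wnt9a and Wnt9b differed by −0.02, 0.01, −0.07 and −0.10. Of the 2 genes that all WNT ligands need for export, neither passed. Wls, the carrier that takes WNT proteins to the cell surface, averaged 10.65 ± 0.16 in the PTC and 10.81 ± 0.26 in the ATC tumours (difference 0.17, adjusted p = 0.408). Porcn, which encodes the acyltransferase that adds the lipid, was at 8.43 ± 0.11 and 8.08 ± 0.29 (difference −0.35, adjusted p = 0.08), and passed without ATC replicate 2 (−0.42, adjusted p = 0.0414).

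The R-spondin ligands did not pass, whereas Lgr4 and Rnf43 of their receptor system fell and Lgr5, Lgr6 and Znrf3 did not pass. Rspo1, Rspo2, Rspo3 and Rspo4 differed by −0.21, 0.03, −0.12 and 0.39 (limma adjusted p 0.148, 0.856, 0.264 and 0.255). The calls were 0 of 4, beside 21.2% of all genes. At an unadjusted limma p under 0.05 the count was 1 of 4, Rspo1. At that threshold 3453 of all 19938 genes were higher and 3071 lower. With only 4 genes, a departure from these shares cannot be told. Rspo2 and Rspo3 were dim, with means of 6.26 and 5.83, under the 25th percentile of gene means (6.53). Rspo4 was at 6.46 to 6.70 in PTC and at 6.58 to 6.88 in ATC apart from ATC replicate 5, which was at 7.99. Lgr4, an R-spondin receptor, was at 9.36, 9.29, 9.49, 9.12 and 9.30 in PTC and at 7.51, 8.77, 7.86, 8.46 and 8.04 in ATC. The groups were apart, and Lgr4 fell by 1.18 (SE 0.20, adjusted p = 0.00195). Lgr5, its paralog and a stem cell marker of the gut, was at 8.72 ± 0.47 and 7.78 ± 0.79 (difference −0.94, adjusted p = 0.0808), and passed without ATC replicate 5 (−1.16, adjusted p = 0.0331). Rnf43, one of the ligases that remove Frizzled from the surface, was at 7.19, 7.49, 7.14, 7.33 and 7.77 in PTC and at 6.67, 6.94, 6.89, 6.80 and 6.68 in ATC. It fell by 0.59 (SE 0.12, adjusted p = 0.00501), with every ATC tumour below every PTC tumour. The related ligase gene Znrf3 was at 7.03 ± 0.25 and 7.21 ± 0.10 (difference 0.18, adjusted p = 0.305).

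Of the 10 Frizzled receptor genes, Fzd1, Fzd4 and Fzd6 fell and 7 did not pass. The 3 calls are 30% of the class, beside 21.2% of all genes. Fzd6, a receptor that acts in tissue polarity and in skin and hair patterning, was at 9.41, 8.75, 9.32, 9.37 and 9.45 in PTC and at 7.59, 8.15, 7.0, 8.07 and 8.49 in ATC. The groups did not overlap, and the highest ATC tumour lay 0.26 below the lowest PTC tumour. The difference was −1.40 (SE 0.25, 95% interval −1.95 to −0.86), a 2.64-fold fall (adjusted p = 0.00254).

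Fzd1, a receptor for canonical ligands, was at 9.07, 9.01, 9.07, 9.05 and 9.72 in PTC and at 8.22, 8.12, 7.87, 8.32 and 8.87 in ATC. The groups were again apart, by 0.14, with replicate 5 the highest of each group. Fzd1 fell by 0.91 (SE 0.19, adjusted p = 0.00563). Fzd4, the receptor of blood vessel cells for norrin as well as for WNT ligands, was at 7.55, 7.23, 7.50, 7.89 and 7.47 in PTC and at 6.53, 7.33, 6.70, 6.95 and 6.85 in ATC. ATC replicate 2 lay within the PTC range, and Fzd4 fell by 0.66 (SE 0.15, adjusted p = 0.0106). These 3 calls held without any single array.

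The other Frizzled genes did not pass, and Fzd7 came closest to the threshold. Fzd7, a receptor of stem and progenitor cells, averaged 9.06 ± 0.17 in the PTC and 8.75 ± 0.23 in the ATC tumours (difference −0.31, 95% interval −0.57 to −0.05, adjusted p = 0.092), and passed without ATC replicate 3 (−0.38, adjusted p = 0.0397). For Fzd9 every ATC value lay below every PTC value, by 0.01, but its difference of −0.23 did not pass (adjusted p = 0.105). Fzd2, Fzd3, Fzd5, Fzd8 and Fzd10 differed by 0.25, 0.16, −0.11, −0.14 and −0.06. The co-receptor gene Lrp6 was at 10.12 ± 0.17 and 10.16 ± 0.13 (difference 0.04, adjusted p = 0.805), and Lrp5 was at 9.02 ± 0.30 and 8.57 ± 0.37 (−0.45, adjusted p = 0.116). Ror2, a WNT5A receptor, differed by −0.01 (adjusted p = 0.946).

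Fzd4 is best known from the norrin pathway, in which the secreted protein norrin binds FZD4 and LRP5 with the help of the tetraspanin TSPAN12 and raises beta-catenin in blood vessel cells. The ligand gene Ndp rose, the receptor gene Fzd4 and Tspan12 fell, and Lrp5 did not pass. Ndp, which encodes norrin, was at 6.44, 5.72, 5.74, 6.25 and 6.12 in PTC and at 7.90, 7.70, 7.23, 7.24 and 8.12 in ATC. It rose by 1.59 (SE 0.20, adjusted p = 0.000379), with all ATC tumours above all PTC tumours. Tspan12 was at 10.40, 9.82, 9.87, 10.13 and 9.91 in PTC and at 7.93, 8.60, 7.61, 8.11 and 7.78 in ATC. The groups lay more than 1 log2 unit apart, and Tspan12 fell by 2.02 (SE 0.18, adjusted p = 6.55e-05). Among 6 endothelial markers, Pecam1 and Tek fell and 4 did not pass, and their mean was 8.61 to 9.18 in PTC and 8.28 to 8.84 in ATC. Pecam1 was on the edge of the threshold (−0.40, limma adjusted p = 0.05 when rounded), and Kdr just missed it (−0.67, adjusted p = 0.0514). The part of blood vessel cells in the Fzd4, Tspan12 and Ndp differences was not tested.

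**Figure D2:**
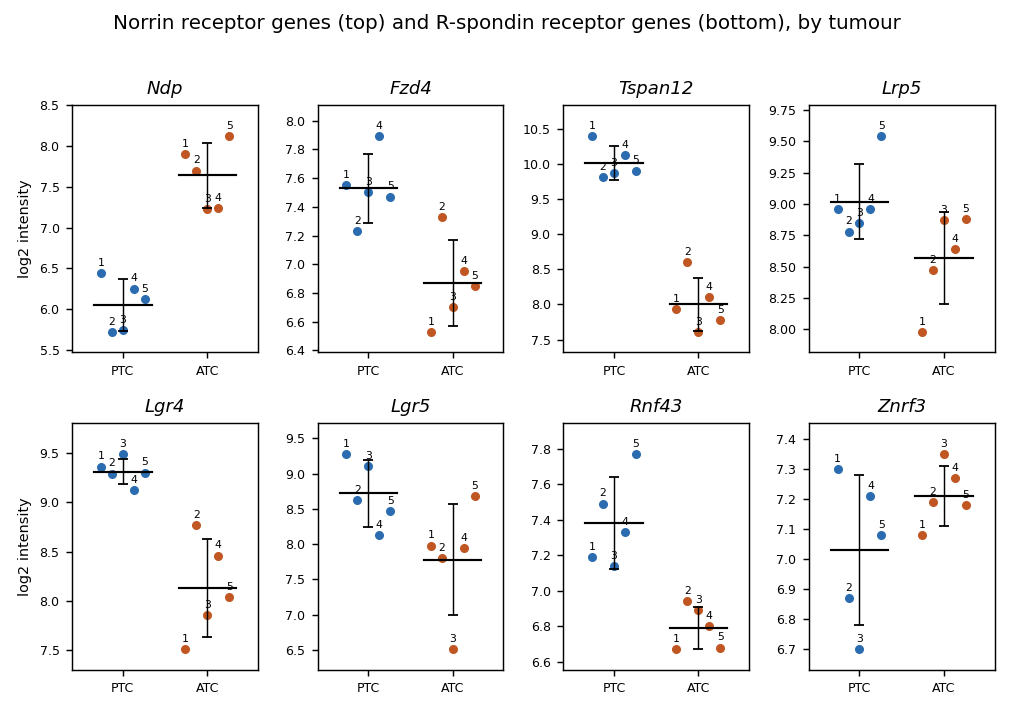
Log2 intensity on the y axis for each tumour (points, with the replicate number), with the group mean (line) and SD (bar), for norrin pathway genes in the top row and R-spondin receptor genes in the bottom row. Ndp lies higher and Tspan12, Lgr4 and Rnf43 lie lower in all 5 ATC tumours, while Znrf3 and Lrp5 overlap between the groups.

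Of the 5 secreted WNT-binding proteins, Sfrp1 and Sfrp4 fell and 3 did not pass. The 2 calls are 40% of the class, beside 21.2% of all genes. Sfrp4, an antagonist made by fibroblasts and bone-forming cells, had the largest difference of the 42 genes. It was at 11.16, 9.03, 10.18, 10.84 and 9.93 in PTC and at 7.55, 9.10, 6.88, 7.0 and 8.13 in ATC. ATC replicate 2 lay just above the lowest PTC tumour, and the other ATC tumours lay below all PTC tumours. The difference was −2.49 (SE 0.47, 95% interval −3.52 to −1.47), a 5.63-fold fall (adjusted p = 0.00342).

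Sfrp1, an antagonist that is often silenced by methylation in human carcinomas, was at 9.90, 10.04, 9.96, 9.67 and 10.11 in PTC and at 8.64, 9.47, 8.27, 7.26 and 8.54 in ATC. The groups were apart by 0.20, and the ATC tumours were spread widely (SD 0.80 against 0.17 in PTC). Sfrp1 fell by 1.50 (SE 0.31, adjusted p = 0.00567), a 2.83-fold difference. The Sfrp1 and Sfrp4 calls held without any single array.

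Sfrp2 divided the ATC tumours. It was at 10.69, 9.99, 9.81, 9.93 and 10.27 in PTC, and at 7.91, 8.46 and 7.56 in ATC replicates 1, 2 and 3 but at 11.06 and 11.15 in ATC replicates 4 and 5. In ATC, 3 tumours were therefore below every PTC tumour and the remaining pair above every PTC tumour. The mean difference of −0.91 (SE 0.67, 95% interval −2.38 to 0.56) did not pass (adjusted p = 0.393), and the SD was 1.74 in ATC against 0.35 in PTC. In the same ATC tumours, replicates 4 and 5, Sfrp4 was at 7.0 and 8.13 and Sfrp1 at 7.26 and 8.54, so the Sfrp genes did not order the tumours alike. Sfrp5 differed by −0.17 and Wif1 by −0.05 (adjusted p = 0.114 and 0.78). Frzb, which encodes a further secreted Frizzled-related protein but is outside the 42 by its symbol, was at 7.01 ± 0.28 and 6.49 ± 0.40 (difference −0.52, adjusted p = 0.0797), and passed without ATC replicate 1 (−0.64, adjusted p = 0.031).

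Of 8 fibroblast markers, 0 rose, Dcn, Lum and Postn fell and 5 did not pass. Among those 5, Col1a1, Col1a2, Col3a1 and Pdgfrb differed by −0.20, 0.13, −0.30 and −0.04, and Pdgfra by 1.17 (adjusted p = 0.0848). The 8 had a mean of 9.86 to 10.04 in PTC and 9.25 to 10.03 in ATC. Of 6 epithelial markers, Cdh1, Epcam, Krt7 and Krt19 fell and 2 did not pass, with a mean of 11.16 to 11.36 in PTC and 8.39 to 10.42 in ATC. Among the ATC tumours, Cdh1, Epcam, Krt7 and Krt19 were highest in replicate 2, and Krt8 and Krt18 in replicate 3. The part of either cell type in the Sfrp and Frizzled differences was not tested.

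**Figure D3:**
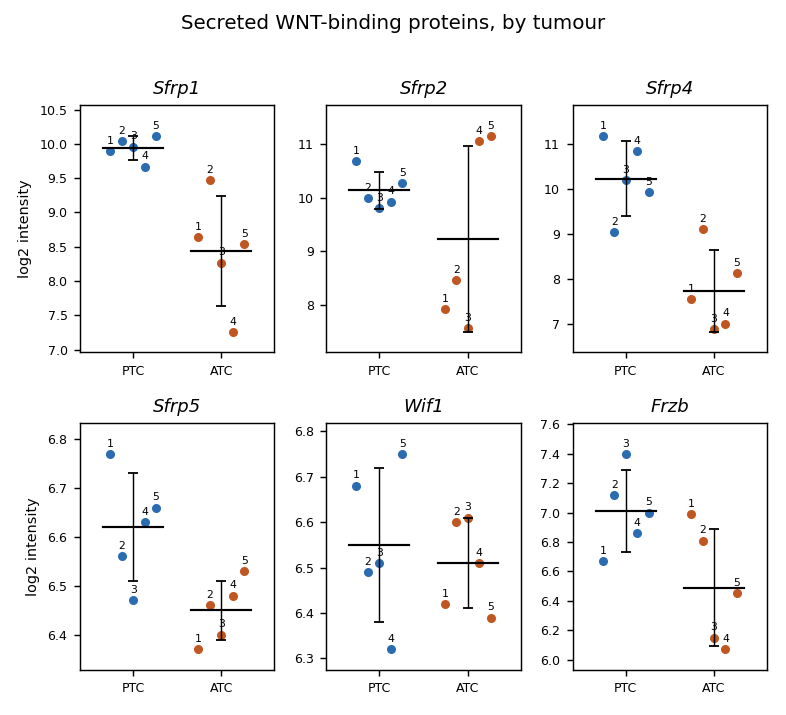
Log2 intensity on the y axis for each tumour (points, with the replicate number), with the group mean (line) and SD (bar), for the secreted WNT-binding proteins and Frzb. Sfrp1 and Sfrp4 lie lower in ATC, and Sfrp2 lies at 7.56 to 8.46 in 3 ATC tumours and at 11.06 and 11.15 in the others.

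Of the 4 Dickkopf genes, Dkk2 and Dkk3 rose and Dkk1 and Dkk4 did not pass. The 2 calls are 50% of the class, beside 21.2% of all genes. Dkk2, which binds LRP5 and LRP6 and can block or, in some settings, promote canonical signalling, had the smallest p of the 42 genes. It was at 9.67, 9.85, 10.19, 10.01 and 9.98 in PTC and at 12.39, 11.90, 11.86, 11.52 and 11.73 in ATC. The lowest ATC tumour lay 1.33 above the highest PTC tumour. The difference was 1.94 (SE 0.15, 95% interval 1.61 to 2.27), a 3.83-fold rise (adjusted p = 3.32e-05). Its receptor partners Kremen1 and Kremen2, which help Dickkopf proteins to remove LRP6 from the surface, differed by −0.13 and −0.11 (adjusted p = 0.527 and 0.336).

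Dkk3, a divergent member of the family that is not a standard LRP6 antagonist, was at 7.44, 7.20, 7.33, 7.49 and 7.55 in PTC and at 8.62, 7.53, 8.42, 8.11 and 9.13 in ATC. ATC replicate 2 lay within the PTC range and the other ATC tumours lay above it. Dkk3 rose by 0.96 (SE 0.24, adjusted p = 0.0137). The calls of Dkk2 and Dkk3 held without any single array. Dkk1, the classical secreted antagonist, was at 6.92 ± 0.10 and 6.87 ± 0.18 (difference −0.05, 95% interval −0.25 to 0.15), and Dkk4 differed by 0.09.

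**Figure D4:**
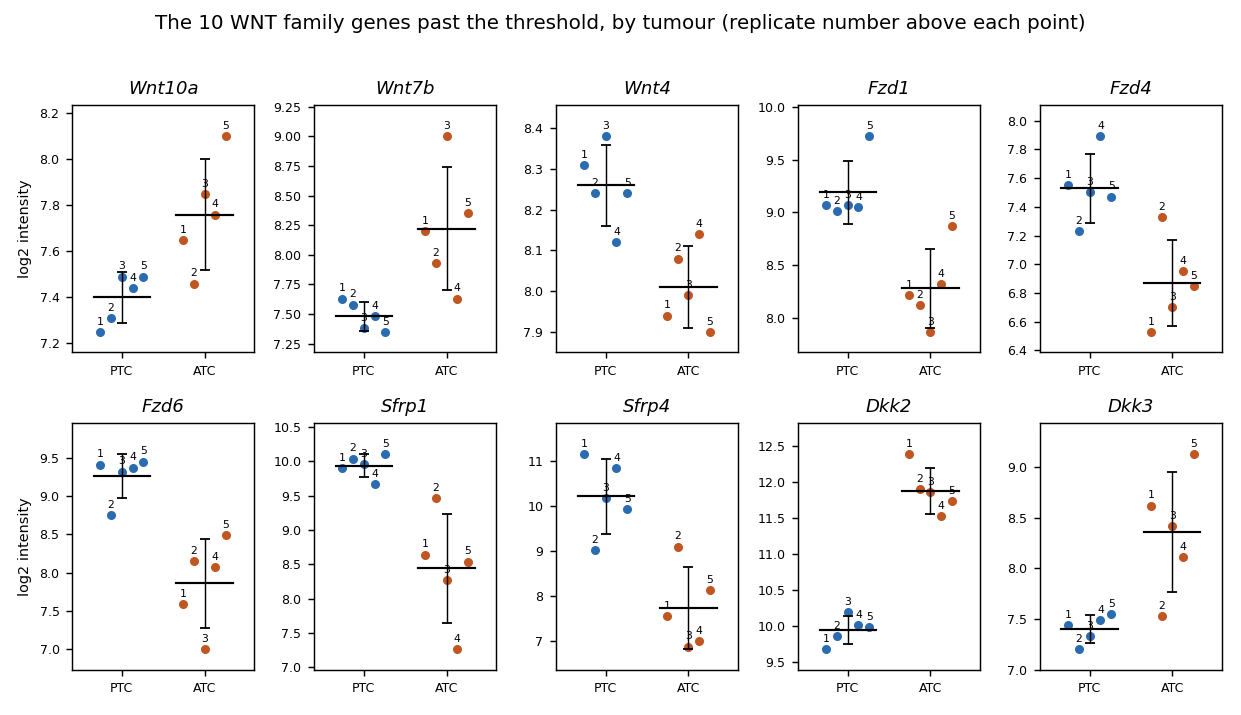
Log2 intensity on the y axis for each tumour (points, with the replicate number), with the group mean (line) and SD (bar), for the 10 genes that passed. Dkk2 shows the widest gap between the groups (1.33), and ATC replicate 2 lies inside the PTC range for Wnt10a, Fzd4, Sfrp4 and Dkk3.

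The sequences just before the start of transcription are shown for Dkk2, the largest rise, and for 2 of the Frizzled genes that fell. The RefSeq promoter table (build GRCm38.p6) held 28 of the 42 genes with 31 start sites, among them 4 of the 10 called genes. Each stretch covers the 250 bases before the start. In Dkk2 (chr3:132085042-132085291, plus strand) the capitals mark a TATAAA element that begins 32 bases before the start. In Fzd1 (chr5:4758217-4758466, minus strand) and Fzd4 (chr7:89404116-89404365, plus strand) they mark each CG.
Dkk2: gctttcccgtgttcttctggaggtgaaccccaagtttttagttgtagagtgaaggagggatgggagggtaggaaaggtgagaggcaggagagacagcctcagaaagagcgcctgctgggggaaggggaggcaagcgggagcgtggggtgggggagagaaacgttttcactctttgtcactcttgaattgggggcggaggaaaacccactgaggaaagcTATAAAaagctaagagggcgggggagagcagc
Fzd1: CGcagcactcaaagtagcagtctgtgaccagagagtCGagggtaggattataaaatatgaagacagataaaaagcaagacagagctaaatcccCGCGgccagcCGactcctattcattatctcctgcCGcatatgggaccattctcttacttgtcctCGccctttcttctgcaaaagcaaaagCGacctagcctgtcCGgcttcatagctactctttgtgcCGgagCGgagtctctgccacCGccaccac
Fzd4: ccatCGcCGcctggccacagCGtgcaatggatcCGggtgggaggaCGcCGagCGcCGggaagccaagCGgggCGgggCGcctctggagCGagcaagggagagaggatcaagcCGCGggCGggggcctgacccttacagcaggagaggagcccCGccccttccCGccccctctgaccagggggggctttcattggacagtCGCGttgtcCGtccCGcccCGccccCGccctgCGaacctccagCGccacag

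A TATAAA within the last 50 bases before the start, searched on the gene's own strand, was present in 2 of the 31 promoters of the family, those of Dkk2 and Wnt11, and in 2.63% of all 32851 promoters of the table. CG was found 7 times before Dkk2, 12 times before Fzd1 and 25 times before Fzd4, with a median of 22 over the family and 6 over the table. The letters CTTTGNN with A or T at each N, the core that TCF and LEF factors bind, were searched on both strands of the 250 bases. They occurred in 4 of the 31 promoters of the family (Fzd7, Wnt5b, Wnt11 and Dkk1) and in 14.8% of the table. These matches describe the letters of the window only.

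Other regulators at the cell surface that are outside the 42 genes moved in both directions. Of 14 such genes, Apcdd1 and Ndp rose, Tspan12, Rnf43, Sostdc1 and Dkkl1 fell and 8 did not pass. The 6 calls are 42.9% of this short list, beside 21.2% of all genes, and the list was chosen with these data known. Apcdd1, a membrane protein that inhibits WNT signalling and is itself induced by it, was at 7.59, 7.04, 7.28, 7.19 and 7.55 in PTC and at 9.27, 8.16, 8.98, 9.36 and 9.40 in ATC. The groups did not overlap, and Apcdd1 rose by 1.70 (SE 0.22, adjusted p = 0.00045). Sostdc1, a secreted antagonist of WNT and BMP signals, fell by 0.76 (SE 0.20, adjusted p = 0.0178), and Dkkl1 fell by 0.23 (adjusted p = 0.0436). The Dkkl1 call was lost on leaving out PTC replicate 1, 2, 3 or 5 or, of the ATC tumours, replicate 1, 2, 3 or 4 (adjusted p from 0.0528 to 0.102 and differences from −0.25 to −0.20).

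Over the whole list of 72 measured pathway genes outside the family, 7 rose, 10 fell and 55 did not pass. The 17 calls are 23.6%, beside 21.2% of all genes, and the median difference was −0.02, the same as over all genes. The number of rises was 4 without PTC replicate 2, 3 or 4. Of the planar polarity and calcium genes, 3 rose and 2 fell among 13, which is 38.5% beside the same 21.2%. This list too was chosen with these data known. Daam1, a formin that links Dishevelled to the actin cytoskeleton, rose by 0.77 (SE 0.09, adjusted p = 0.000264), and the polarity gene Prickle1 rose by 1.09 (SE 0.24, adjusted p = 0.00782). The atypical cadherin genes Celsr1 and Celsr2, whose proteins hold polarity complexes at cell borders, fell by 0.63 (SE 0.14, adjusted p = 0.00982) and 0.80 (SE 0.10, adjusted p = 0.000357). Nfatc2, a transcription factor of the calcium branch, rose by 0.38 (adjusted p = 0.0242), a call that was lost on leaving out PTC replicate 2, 3 or 4 (adjusted p from 0.0549 to 0.0598 and differences from 0.36 to 0.37).

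Of the pathway genes that act inside the cell, 6.25% of the cytoplasmic and 14.3% of the nuclear genes passed, beside 21.2% of all genes. Whether the share of such a short list differs from the background was not tested. Of 16 cytoplasmic components, only the kinase gene Csnk1e passed, with a rise of 0.59 (adjusted p = 0.042) that was lost on leaving out PTC replicate 1, 2, 3 or 4 or, of the ATC tumours, replicate 1, 3 or 5 (adjusted p from 0.0699 to 0.0944 and differences from 0.46 to 0.61). Ctnnb1, which encodes beta-catenin, averaged 11.28 ± 0.11 in the PTC and 11.08 ± 0.16 in the ATC tumours (difference −0.20, adjusted p = 0.149), and passed without ATC replicate 5 (−0.26, adjusted p = 0.044). Of 14 nuclear genes, Lef1 rose, the co-repressor gene Tle1 fell by 0.48 (SE 0.10, adjusted p = 0.00625) and 12 did not pass. Lef1, the DNA-binding partner of beta-catenin, was at 7.89, 7.38, 7.26, 7.29 and 7.18 in PTC and at 7.61, 8.11, 7.97, 8.02 and 8.70 in ATC. PTC replicate 1 stood above the other PTC tumours, and ATC replicate 1 was the only ATC tumour below it. The rise was 0.68 (SE 0.19, adjusted p = 0.0259), and the call was lost on leaving out PTC replicate 2, 3, 4 or 5 (adjusted p from 0.0511 to 0.0624 and differences from 0.63 to 0.68). In the remaining groups, Trabd2b, a protease that cuts WNT ligands, fell by 0.41 (adjusted p = 0.0157), and the receptor-like gene Ptk7 fell by 0.23 (adjusted p = 0.0466). The Ptk7 call was lost on leaving out any of the 5 PTC arrays, or ATC replicate 1, 2, 3 or 4 (adjusted p from 0.0675 to 0.107 and differences from −0.24 to −0.18). Csnk1e, Trabd2b, Ptk7, Sostdc1, Dkkl1, Frzb, Znrf3, Notum, Nkd1, Sp5, Tcf7l2 and the Kremen genes were singled out after their values were seen.

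**Figure D5:**
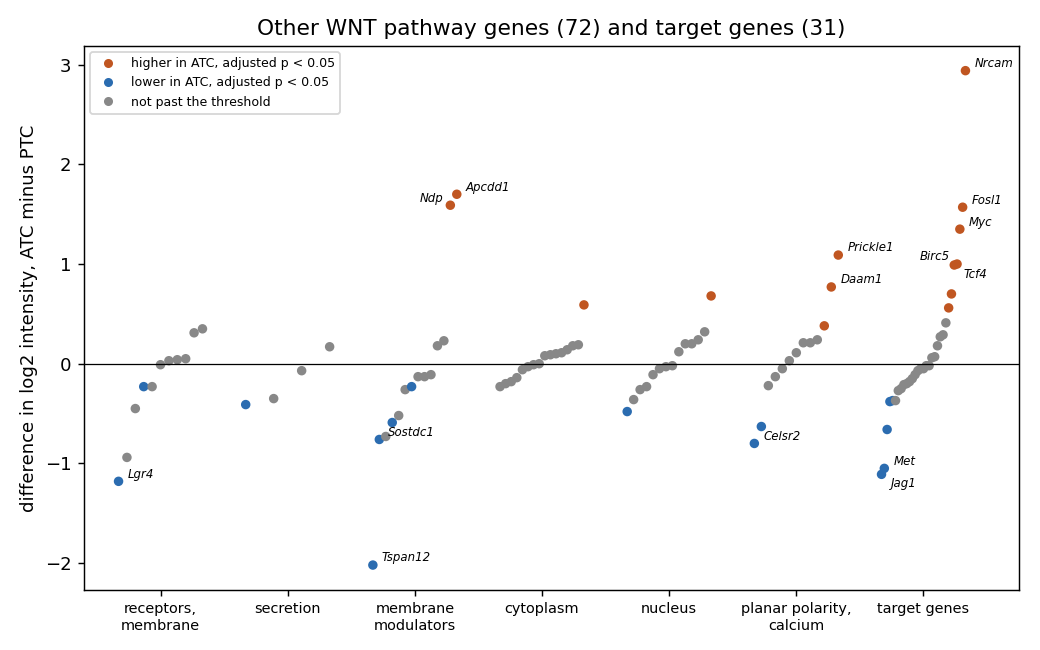
Differences in log2 intensity, ATC minus PTC, on the y axis for 72 other WNT pathway genes by compartment and for 31 target genes, 1 point per gene. The cytoplasmic genes lie between −0.23 and 0.59, and the wider differences are those of membrane modulators (−2.02 to 1.70), polarity genes (−0.80 to 1.09) and target genes (−1.11 to 2.94).

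Genes known to be transcribed in response to beta-catenin also went both ways. Of 31 measured targets, 7 rose, 5 fell and 19 did not pass, with a median difference of −0.05. The 12 calls are 38.7%, beside 21.2% of all genes, on a list chosen with these data known. The number of falls was 3 without PTC replicate 3 or, of the ATC tumours, replicate 4. Axin2, the feedback inhibitor that responds to canonical signalling in most tissues, was at 7.53, 7.20, 7.28, 7.29 and 7.24 in PTC and at 8.11, 7.65, 7.70, 7.56 and 8.31 in ATC. ATC replicate 4 lay just above PTC replicate 1, the other ATC tumours lay further above it, and Axin2 rose by 0.56 (SE 0.14, adjusted p = 0.0163). The adhesion molecule gene Nrcam rose by 2.94 (SE 0.40, adjusted p = 0.000631), from 6.35 ± 0.19 to 9.29 ± 1.04. The transcription factor genes Fosl1, Myc, Tcf4 and Jun rose by 1.57, 1.35, 0.99 and 0.70, and the survival and mitosis gene Birc5 rose by 1.00 (adjusted p 0.00085 to 0.0101). Tcf4 is listed here as a target and is a different gene from Tcf7l2 of the nuclear list. Tcf7l2 differed by −0.23 and did not pass (limma adjusted p = 0.204).

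The targets that fell were Jag1 (−1.11, adjusted p = 0.000396), Met (−1.05, adjusted p = 0.0254), Cd44 (−0.66, adjusted p = 0.00252), Nkd2 (−0.38, adjusted p = 0.046) and Ephb3 (−0.37, adjusted p = 0.0191). These encode a Notch ligand, the hepatocyte growth factor receptor, a hyaluronan receptor, a Dishevelled-binding feedback inhibitor and an ephrin receptor. The Met call was lost on leaving out PTC replicate 2 or 3 or, of the ATC tumours, replicate 4 (adjusted p from 0.0517 to 0.0614 and differences from −1.0 to −0.99). The Nkd2 call was lost on leaving out PTC replicate 1, 3, 4 or 5 or, of the ATC tumours, replicate 1, 3 or 4 (adjusted p from 0.0646 to 0.102 and differences from −0.40 to −0.30). Of the feedback genes that respond to the pathway itself, Axin2 and Apcdd1 rose while Rnf43 and Nkd2 fell, and Nkd1, Sp5, Znrf3 and Notum differed by −0.02, −0.11, 0.18 and −0.07. Several targets also respond to other pathways.

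Of 8 macrophage markers all rose, with a mean of 9.36 to 9.80 in PTC and 10.70 to 11.48 in ATC, beside the rises of Wnt7b, Wnt10a, Dkk2, Dkk3, Ndp and Apcdd1. The part of macrophages in those rises was not tested. Of 5 T cell markers 2 fell, of 5 smooth muscle and pericyte markers 1 fell and of 4 basal squamous markers 3 fell. The measured markers of skeletal muscle, parathyroid, C cells, Schwann cells, adipocytes and muscle stem cells had 0 calls (limma). Of all genes, 21.2% were called. At an unadjusted limma p under 0.05 the count was 1, the Schwann cell list's S100b. Over all 19938 genes, 3453 were higher and 3071 lower at that threshold. Single tumours nevertheless differed widely in some of these markers. Pth (parathyroid) ran from 4.38 to 12.66 in PTC and from 4.73 to 11.97 in ATC. Tnnt3 (skeletal muscle) ran from 7.70 to 11.07 in PTC and from 8.63 to 10.51 in ATC (difference −0.22). Tnnt3 was highest in PTC replicates 1 and 4 and in ATC replicates 2 and 5, as was Sfrp4. This match of 1 marker with 1 member was singled out after the values were seen. The part of muscle or parathyroid tissue in the Sfrp4 difference was not tested.

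The members varied more among the ATC than among the PTC tumours. The SD was larger in ATC for 34 of the 42 genes (81%), beside 68.6% of all genes, and the median SD was 0.14 in PTC and 0.18 in ATC, beside 0.13 and 0.17 over all genes. ATC replicate 5 stood furthest from its group. Its median absolute deviation from the ATC mean was 0.19 over the 42 genes, against 0.08 to 0.12 in the other ATC tumours. It was the lowest ATC tumour for 16 members and the highest for 12.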

How the data were processed

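The deposited series table holds normalized log2 intensities of 35556 probe sets on 10 arrays. Affymetrix Power Tools and limma are named in the submitters' processing notes, with no version; background correction, normalization and genome build are not stated in the labels. The scale was taken as log2 from the values (2.79 to 14.15). No detection calls were used, so dim genes may show smaller differences than their RNA. The number of arrays limits the precision.

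By the platform annotation, 21789 probe sets had 1 gene symbol, 1621 several and 12146 none here, which left 19938 genes with 1 probe set each, that of the highest mean. Groups came from the sample titles. The fit was limma 3.58.1 (R 4.3.3, lmFit and eBayes) of ATC against PTC on all genes, with no covariate and no filter, Benjamini-Hochberg adjustment and 95% intervals. On simulated normal values with 50 genes changed per size, it recovered 42% of changes of 0.5 log2 units and 94% of those of 1.0. Far fewer genes were changed there than were called in these data. Of the 42 members, 34 had a mean at or above the 25th percentile of all gene means and 13 at or above the median.

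The members, lists and tests were chosen with earlier results of these data known. All members are named. Of 73 other pathway genes (72 measured) and 34 targets (31 measured), Ctnnb1, Lrp5, Lrp6, Axin2, Lef1, Tcf7, Lgr4, Lgr5, Wls, Porcn and Ror2 were to be named in any case, with up to 6 called genes per list and direction by smallest p; Tcf7 is not analysed here. Markers of 14 cell types were measured. Promoter sequences are RefSeq's (GRCm38.p6). Alternatives were probe set averaging, 2 filters on dim genes, quantile normalization, centring, a robust variance trend, weighted arrays, a replicate block and omitted arrays. Python 3.11.15 (numpy 2.4.6, pandas 2.3.3, matplotlib 3.10.9) made tables and figures.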

Additional observations from a re-analysis of the deposited data

Results flagged for a closer look

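In 13 of the 146 groups of 5 tumours examined (8.9%; a group is 1 named gene in 1 tumour type), a single tumour stood far from the others of its type, measured as its gap to the nearest tumour over the range of the group. For independent, normally distributed values the rule marks about 1 in 20 groups. The groups here share the same arrays, so they are not independent. The share over all genes tested was not examined, so the 8.9% has no array-wide share beside it. In 7 of the 13 the tumour was PTC replicate 5.

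Among the members of the family, Fzd1 was at 9.72 in PTC replicate 5 against 9.01 to 9.07 in the other PTC tumours. Fzd2 was at 7.36 there against 7.09 to 7.16, and Fzd8 was at 7.30 against 6.86 to 6.96. Fzd6 was at 8.75 in PTC replicate 2 against 9.32 to 9.45. Rspo4 was at 7.99 in ATC replicate 5 against 6.58 to 6.88 in the other ATC tumours, and Wnt3 was at 5.63 there against 6.01 to 6.10.

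Among the other pathway and target genes, PTC replicate 5 was the highest for Lrp5 (9.54 against 8.78 to 8.96), Celsr1 (8.71 against 7.86 to 8.09), Myc (9.84 against 9.12 to 9.33) and Ephb3 (7.74 against 7.25 to 7.39). PTC replicate 1 was the highest for Axin2 (7.53 against 7.20 to 7.29) and Lef1 (7.89 against 7.18 to 7.38). Jun was at 8.48 in ATC replicate 4 against 9.29 to 9.47 in the other ATC tumours.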

How the results depend on the processing

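Of the 10 called members, Dkk2, Dkk3, Fzd1, Fzd4, Fzd6, Sfrp1 and Sfrp4 kept their direction and their call in each of the 19 alternatives that tested them; Fzd4 was not tested with the filter at the median of gene means, which kept 13 members. The calls of Wnt4, Wnt7b and Wnt10a each ended in several. Besides single arrays left out, Wnt4 did not pass with the mean of probe sets (−0.21, adjusted p = 0.0611), centred arrays (−0.21, adjusted p = 0.0749), a variance trend (−0.25, adjusted p = 0.0504) or without ATC replicate 2 and PTC replicate 5 (−0.27, adjusted p = 0.0644). Without that pair Wnt7b (0.78, adjusted p = 0.0513), Lef1 (0.62, adjusted p = 0.0937), Nfatc2 (0.41, adjusted p = 0.0555), Nkd2 (−0.35, adjusted p = 0.07), Ptk7 (−0.23, adjusted p = 0.116) and Dkkl1 (−0.20, adjusted p = 0.146) did not pass either. Wnt10a did not pass with array weights (0.27, adjusted p = 0.0645), and Fzd7 (−0.38, adjusted p = 0.0309) and Ctnnb1 (−0.28, adjusted p = 0.0446) passed with quantile normalization, where Nkd2 (−0.34, adjusted p = 0.0548), Ptk7 (−0.17, adjusted p = 0.128) and Dkkl1 (−0.17, adjusted p = 0.147) did not. Ptk7 (−0.19, adjusted p = 0.0675) and Dkkl1 (−0.20, adjusted p = 0.0744) did not pass with centred arrays, and Lgr5 passed with array weights (−0.93, adjusted p = 0.0479). With each array left out in turn, 2 to 5 members rose and 5 or 6 fell, 4 to 7 other pathway genes rose and 8 to 14 fell, and 7 or 8 targets rose and 3 to 6 fell. With the filter at the median, 3 targets fell, where 20 of the 31 were tested. No called value changed sign.

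The replicate numbers shared by the types did not pair the tumours: same-numbered tumours' deviations correlated at −0.086 to 0.12, and 2 of 10 tumours correlated best with their own number. With the replicate block, 5 members rose and 5 fell (3762 calls over all genes against 4234); Wnt5a passed (0.46, adjusted p = 0.0324) and Wnt4 did not (−0.25, adjusted p = 0.0945). Of the other genes named, Lef1 (0.68, adjusted p = 0.0739), Sostdc1 (−0.76, adjusted p = 0.0669), Nkd2 (−0.38, adjusted p = 0.0541), Ptk7 (−0.23, adjusted p = 0.0731) and Dkkl1 (−0.23, adjusted p = 0.0972) did not pass with the block either.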

Other observations

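Several WNT genes lie next to each other in the mouse genome, with no other protein-coding gene between their starts in the RefSeq gene order of GRCm38.p6. Of 4 such pairs, only Wnt6 and Wnt10a on chromosome 1 held a called gene: Wnt10a rose by 0.37 (adjusted p = 0.0363) and Wnt6 differed by −0.04 (adjusted p = 0.807). The difference between the neighbours was not tested. The other pairs, Wnt3a with Wnt9a and Wnt9b with Wnt3 on chromosome 11 and Wnt10b with Wnt1 on chromosome 15, differed by −0.19 and −0.07, −0.10 and −0.11, and 0.19 and 0.02.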
